A study of Mus musculus with 8 samples.

Results

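Sertoli cells line the seminiferous tubules, support the germ cells as these develop, and release proteins into the tubule fluid. The genes described here encode 8 proteins that Sertoli cells are known to secrete, chosen by name, and they are 8 of the 23983 genes in the deposited table. They comprise the carrier proteins clusterin (Clu) and transferrin (Trf), the matrix protein Sparc and the cysteine protease cathepsin L (Ctsl). The others are Cst9 and Cst12 of the cystatin family, and the beta-defensins Defb19 and Defb36. RNA was measured in testes of C57BL/6J wild-type mice 12, 16 and 24 days after birth (d12, d16, d24) and in adults. The stages follow the first wave of spermatogenesis, in which germ cells reach successive steps of meiosis and then become spermatids. Total RNA from a piece of testis was sequenced as strand-specific paired-end libraries, with 1 library per stage. H3K27Ac ChIP samples of the same stages are not analysed here.

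Tight junctions between Sertoli cells form a barrier that closes off the tubule lumen, so germ cells beyond it depend on what Sertoli cells deliver. Transferrin carries iron across this barrier, cathepsin L breaks down proteins, and clusterin is a lipid-binding chaperone of the tubule fluid. Sparc binds calcium and matrix proteins, and beta-defensins are small antimicrobial peptides. Many cystatins inhibit cysteine proteases, and whether Cst9 or Cst12 does was not tested. As the testis grows, germ cells outnumber Sertoli cells more and more. In whole tissue, fewer cells of a type and less RNA per cell cannot be told apart, and RNA of these genes from other testis cells is counted as well.

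Values are FPKM, fragments scaled to transcript length and by 1 factor per library, as deposited. The fragments behind a value were recovered from the size of 1 fragment, which was 0.0799 FPKM for a 1 kb transcript at d12, 0.0801 at d16, 0.0456 at d24, then 0.112 in the adult. Fragments on genes were estimated from each FPKM value and the mean curated transcript length, for genes with a RefSeq symbol. By this estimate between 8905689 and 23666933 lay on genes in each library. From 180 (Trf, adult) to 20433 (Ctsl, d12) were recovered on a member. At d24 and in the adult the factor of the library stands for fewer fragments than this estimate, so it may not be the library's own total. A value in parentheses is an exact 95% interval that covers counting error only, and no spread between animals can be given with 1 library per stage. The FPKM values did not sum to the same total, since they added up to 283580 at d12, 307964 at d16, 472726 at d24, then 659202 in the adult. The reference gene Gapdh lay at 68.9, 42.6, 19.1 and 20.04 FPKM in the same order. Changes between stages are therefore given beside the median of the 13901 genes whose mean was 1 FPKM or more, and beside ratios within a library, which no scaling alters.

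Clu was the highest of the 8 genes at every stage, with 706.7 FPKM at d12, 609.0 at d16, 419.6 at d24, then 456.6 in the adult. By level it was the 19th gene of the whole table at d12 and the 209th in adult testis. Its adult level was 0.646 times that at d12 (0.628 to 0.664), a log2 change of -0.63 against 0.20 for the median gene. The largest step lay between d16 and d24, and the adult level as deposited was 1.09 times that at d24 (1.06 to 1.12). From d24 to adult, 2 of the 8 genes were lower as deposited. With libraries rescaled to the same FPKM sum 7 were lower, and with the upper quartile 6. The median log2 change of all tested genes was -0.02, -0.49 and -0.25 in the same order.

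Trf, the iron carrier, stood far below the other genes, with 6.61 FPKM at d12 (5.71 to 7.61), 6.93 at d16 (6.01 to 7.96), 6.05 at d24 (5.40 to 6.77), then 8.66 in the adult (7.44 to 10.0). The first 3 intervals overlap each other, and the adult interval lies above that at d24. The adult level was 1.31 times that at d12 (1.06 to 1.61) and 1.43 times that at d24 (1.18 to 1.72), from 180 adult fragments. Rescaling each library to the same FPKM sum or by its upper quartile turned the d12 to adult change of Trf downward. Trf was the only one of the 8 under 30 FPKM in every library, and the other 7 were above 30 FPKM in all 4. By level it was the 6984th gene of the table at d12 and the 7506th in adult testis.

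Sparc, a calcium-binding protein of the extracellular matrix, had 345.6 FPKM at d12, 269.7 at d16, 168.8 at d24, then 153.4 in the adult. It was lower at each stage than at the one before. The adult level was 0.444 times that at d12 (0.428 to 0.461), and -1.37 on the log2 scale relative to the median gene.

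Ctsl, a lysosomal and secreted cysteine protease, had 465.2 FPKM at d12, 344.4 at d16, 181.4 at d24, then 252.7 in the adult. It was lowest at d24, at 0.390 times its d12 level (0.382 to 0.398). The adult level was 1.39 times that at d24 (1.36 to 1.43), and only Trf had a higher ratio over this step. Rescaling to the same FPKM sum brought the median d24 to adult change of the 8 genes to -0.38 on the log2 scale. The upper quartile brought it to -0.14, against 0.10 as deposited. These are medians of the 8 and not values of Ctsl. The log2 change of Ctsl over this step was 0.48 as deposited, 0.50 above the median gene.

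Cst9, which encodes testatin, had 207.9 FPKM at d12, 151.6 at d16, 99.6 at d24, then 105.6 in the adult. Cst12, its neighbour in the genome, had 342.1, 298.4, 166.6 and 124.7 FPKM in the same order. Cst9 levels at d24 and in adult testis differed by less than counting error (ratio 1.06, 0.966 to 1.16), while Cst12 was 0.748 times as high in adult testis as at d24 (0.682 to 0.821). Cst12 had the lowest adult to d12 ratio of the 8 genes at 0.364 (0.333 to 0.399), a 2.74-fold lower level.

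Defb19 had 267.9 FPKM at d12, 284.2 at d16, 215.1 at d24, then 223.7 in the adult. Defb36 had 134.1, 87.7, 44.4 and 50.8 FPKM, the last pair differing by less than counting error (ratio 1.14, 0.966 to 1.35), while Defb19 stayed the higher of the pair in every library. The pair shares a chromosome region and a protein family, but the adult level of Defb19 was 0.835 times that at d12 (0.763 to 0.912) and that of Defb36 0.379 times (0.324 to 0.441). The d12 to d16 ratio of Defb19 was 1.06 (0.984 to 1.15) and that of Defb36 was 0.654 (0.584 to 0.732).

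**Figure D1:**
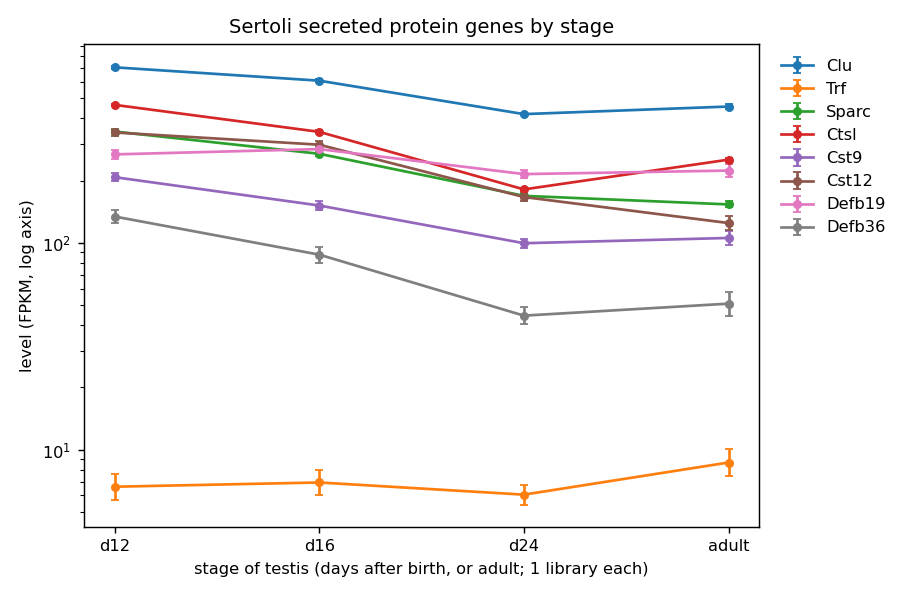
Level of each of the 8 genes in FPKM (log axis) in the library of each stage, with bars for exact 95% counting intervals. Clu is highest and Trf lowest at every stage, and the intervals of Sparc and Cst12 overlap at d12 and d24.

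Ranked by level, Clu was first, Cst9 sixth, Defb36 seventh and Trf last in all 4 libraries. At d12, Sparc and Cst12 could not be told apart, with overlapping intervals. At d16 the intervals of Cst12 and Defb19, and of Defb19 and Sparc, overlapped, and at d24 those of Sparc and Cst12. In adult testis no neighbours in the order overlapped. Defb19 moved from place 5 at d12 to place 2 at d24 and place 3 in adult testis.

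Between neighbouring stages, 0 of the 8 genes were at least 2-fold lower at d16 than at d12, where 3.67% of all tested genes were, 0 at d24 against d16 (8.45% of all) and 0 in adult testis against d24 (2.2% of all). From d12 to adult, 3 of 8 were at least 2-fold lower as deposited, Sparc, Cst12 and Defb36, beside 23.1% of all genes. None of the 8 was at least 2-fold higher, beside 35.7% of all genes. From d12 to d24, a contrast added after the values were seen, 5 of 8 were at least 2-fold lower (Sparc, Ctsl, Cst9, Cst12 and Defb36), beside 19.3% of all genes. Their ratios were 0.331 for Defb36 (0.295 to 0.373), 0.390 for Ctsl, 0.479 for Cst9 (0.447 to 0.514), 0.487 for Cst12 (0.458 to 0.518) and 0.489 for Sparc (0.475 to 0.502). The last 3 intervals span a 2-fold change, so counting error alone could place these genes on either side of it. The same holds for Cst9 from d12 to adult, at 0.508 (0.464 to 0.557). With the d12 to adult counts, 7 of 8 lay at least 2-fold lower when libraries were rescaled to the same FPKM sum, 6 with the upper quartile, and 0 after division by Gapdh, beside 49.7%, 37.8% and 2% of all genes. After division by Gapdh 3 of the 8 were at least 2-fold higher, beside 71.1% of all genes.

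The median log2 change of the 8 genes was -0.29 from d12 to d16, -0.64 from d16 to d24, 0.10 from d24 to adult and -0.93 from d12 to adult. Over all tested genes the medians were 0, 0.13, -0.02 and 0.20. The medians of all genes from d12 to adult were -0.99, -0.45 and 1.97 with the same FPKM sum, the upper quartile and division by Gapdh. Relative to the median gene, the median of the 8 was -1.13 from d12 to adult as deposited, a difference that 1 factor per library cannot alter apart from the pseudocount. As deposited, 7 of the 8 lay below the all-gene median, and Trf lay 0.18 above it. Relative to that median the log2 changes were -0.46 for Defb19, -0.83 for Clu, -1.08 for Ctsl, -1.18 for Cst9, -1.37 for Sparc, -1.60 for Defb36 and -1.66 for Cst12.

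**Figure D2:**
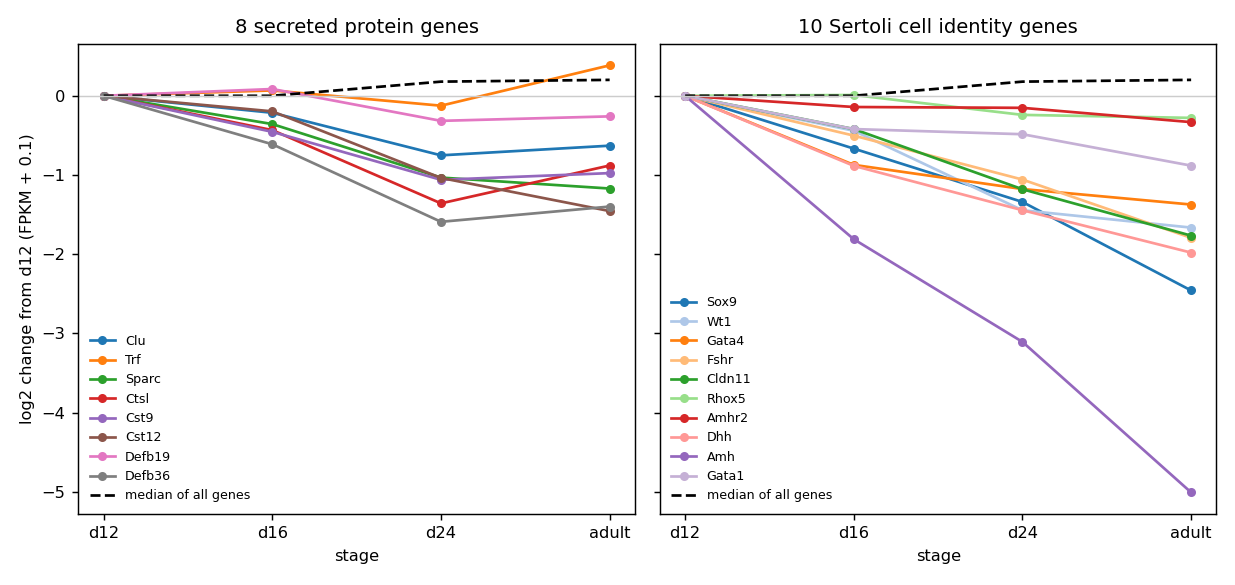
Log2 change from d12 of each of the 8 genes (left) and of 10 genes that mark Sertoli cell identity (right), by stage, with the median of all tested genes dashed. As deposited, Trf lies above 0 in adult testis and the other 7 below it. Division by Gapdh would put all 8 above 0 from d12 to adult, and the median of all tested genes at 1.97. Amh, at 0 in adult testis, is drawn from the pseudocount of 0.1 FPKM and its last point has no meaning as a fold.

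**Figure D3:**
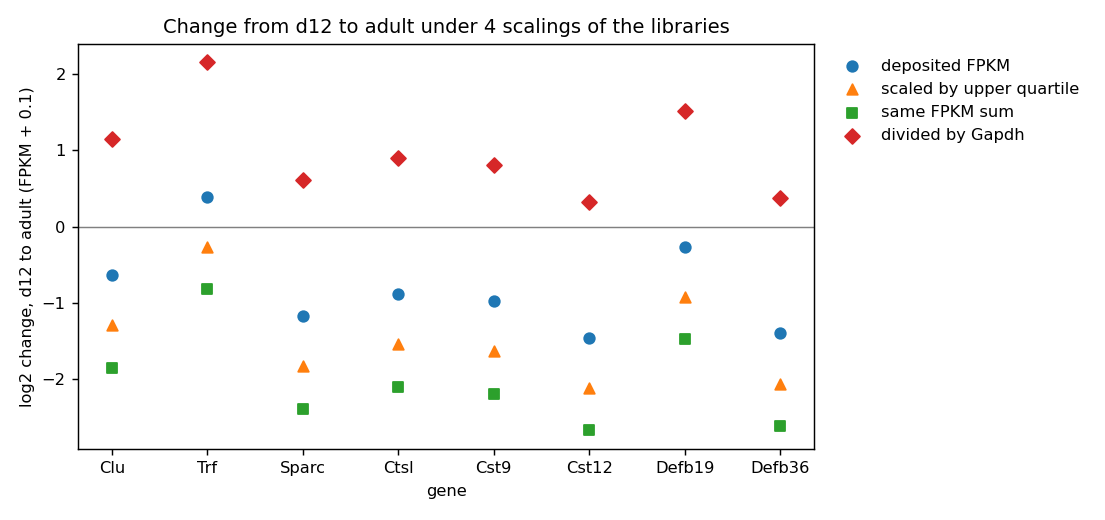
Log2 change from d12 to adult of each gene with the deposited FPKM and under 3 other scalings of the libraries. The sign depends on the scaling, since all 8 are above 0 after division by Gapdh and all 8 are below 0 with the same FPKM sum and the upper quartile. The median of all tested genes was 1.97, -0.99 and -0.45 in the same order. Gapdh itself went from 68.9 to 20.04 FPKM, and 71.1% of all genes were at least 2-fold higher after division by it.

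The genes lie on 5 chromosomes (GRCm38), Clu on chromosome 14, Trf on 9, Sparc on 11, Ctsl on 13, and the other 4 on 2. Cst12 spans 148789365 to 148793432 and Cst9 spans 148835147 to 148838737, both on the plus strand and 41.7 kb apart. Defb19 spans 152576086 to 152580312 on the minus strand, and Defb36 spans 152604327 to 152612729 on the plus strand, 24.01 kb away. Both cystatin genes have 3 exons and both defensin genes 2. Transcripts of Clu, Cst9, Cst12, Defb19 and Defb36 matched no other place in the genome, the best other match of Trf was 79.7% identical over 153 bases, and that of Sparc 71.0% identical over 2060 bases. For Ctsl, 5.19% of the 3509 bases lay in copies at least 95% identical, from repeats. Ctsl also has an annotated model of 1670 bases, so its fragment numbers and its level depend on the length used.

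The RefSeq promoter table (GRCm38.p6) holds 5 of the 8 genes, with no entry for Clu, Trf or Defb19. These 5 are the ones that lay at least 2-fold lower at d24 than at d12 as deposited, and the 250 bases before the start are the window in which motifs were sought. The start is that of the curated transcript whose length is used here. For Ctsl it lies at 64370520, while the gene as annotated reaches to 64370772 through a model that starts earlier, so the Ctsl window covers the first exon and intron of that model. The 65 bases that lie in that exon, which hold the E-box of Ctsl, are left out of the Ctsl sequence printed, and the windows of the other 4 hold no exon of their own gene. Capitals mark the AGAACA core of the androgen receptor motif or its reverse complement in Sparc and Defb36, and the SOX motif AACAAT on the opposite strand in Ctsl. The stretches are chr11:55420081-55420330 on the minus strand (Sparc), chr13:64370521-64370705 on the minus strand (Ctsl), chr2:148834897-148835146 on the plus strand (Cst9), chr2:148789115-148789364 on the plus strand (Cst12) and chr2:152604077-152604326 on the plus strand (Defb36).
Sparc: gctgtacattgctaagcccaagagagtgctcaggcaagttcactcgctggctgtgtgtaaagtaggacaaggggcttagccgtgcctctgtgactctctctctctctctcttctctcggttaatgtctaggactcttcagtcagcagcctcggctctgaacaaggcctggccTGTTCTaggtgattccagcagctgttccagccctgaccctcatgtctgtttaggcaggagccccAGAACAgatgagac
Ctsl: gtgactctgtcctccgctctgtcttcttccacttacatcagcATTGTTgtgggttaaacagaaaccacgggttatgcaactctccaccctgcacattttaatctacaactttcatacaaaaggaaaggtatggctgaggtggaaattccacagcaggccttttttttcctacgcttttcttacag
Cst9: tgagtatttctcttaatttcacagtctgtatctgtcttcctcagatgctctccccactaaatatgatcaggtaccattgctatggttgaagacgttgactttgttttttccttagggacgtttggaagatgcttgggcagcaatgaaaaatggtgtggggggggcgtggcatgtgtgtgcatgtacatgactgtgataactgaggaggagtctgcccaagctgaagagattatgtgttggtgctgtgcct
Cst12: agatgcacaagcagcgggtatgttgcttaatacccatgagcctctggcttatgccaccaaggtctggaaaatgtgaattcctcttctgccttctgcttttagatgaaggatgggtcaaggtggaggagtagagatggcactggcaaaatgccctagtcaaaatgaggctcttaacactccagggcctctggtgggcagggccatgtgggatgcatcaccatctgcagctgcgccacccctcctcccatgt
Defb36: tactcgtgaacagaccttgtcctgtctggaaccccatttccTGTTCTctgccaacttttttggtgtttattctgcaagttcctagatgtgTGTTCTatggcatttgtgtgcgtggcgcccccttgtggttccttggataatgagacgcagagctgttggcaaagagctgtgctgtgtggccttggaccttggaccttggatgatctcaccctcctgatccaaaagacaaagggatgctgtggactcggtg

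Matches to 7 motifs were counted on both strands, and a match is a description of letters only. The androgen receptor core AGAACA was found in Sparc at -78 to -73 and -14 to -9 from the start, and in Defb36 at -209 to -204 and -160 to -155. Of the 32851 promoter windows of the table, 16.1% hold it. The SOX motif AACAAT was found in Ctsl at -143 to -138 and is held by 9.42% of windows. All 5 genes hold an E-box, CANNTG, as do 66.2% of windows, and the E-box of Sparc at -10 to -5 overlaps the AGAACA at -14 to -9. The motif of GATA factors, written AGATAA, was in none of the 5 and in 9.99% of windows. The SF1 motif, written CAAGGTCA, was in none of the 5 and in 1.33%. The cAMP response element, written TGACGTCA, was in none of the 5 and in 1.55%. The core promoter box written TATAAA was in none of the 5 and in 12.4%.

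Ratios within a library do not depend on scaling between libraries. The Defb19 to Defb36 ratio was 2.00 at d12 (1.83 to 2.18), 3.24 at d16 (2.93 to 3.59), 4.84 at d24 (4.36 to 5.37), then 4.40 in the adult (3.77 to 5.14). Its d24 and adult intervals overlapped, and the first 3 were separate. The Cst12 to Cst9 ratio was 1.65, 1.97, 1.67 and 1.18, with the adult interval (1.05 to 1.32) below the other 3. The Ctsl to Cst12 ratio was 1.36, 1.15, 1.09 and 2.03, and the adult value (1.86 to 2.205) was above the rest. The ratio of Ctsl to Cst9 was 2.24, 2.27, 1.82 and 2.39, lowest at d24. The Clu to Trf ratio was 106.9 at d12 (92.7 to 123.8), 87.9 at d16 (76.4 to 101.4), 69.4 at d24 (61.9 to 77.8), then 52.7 in the adult (45.5 to 61.5). Its d12 and d16 intervals overlapped, as did those of d16 and d24.

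**Figure D4:**
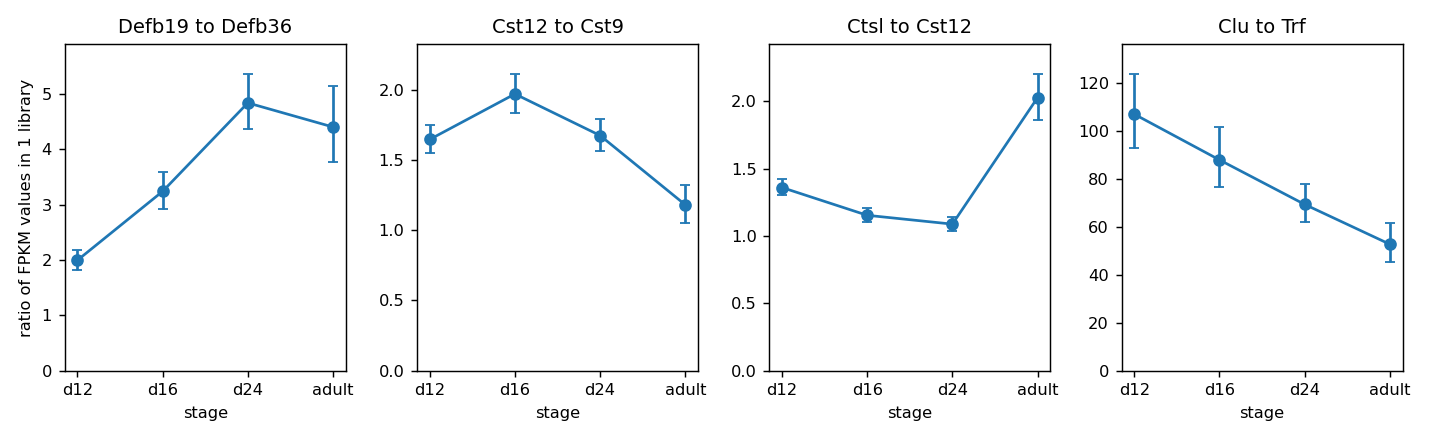
Ratio of FPKM values of pairs of genes within each library, with bars for 95% intervals from fragment counts. Defb19 to Defb36 is higher at d24 and in adult testis than at d12, Cst12 to Cst9 is lowest in adult testis, and Ctsl to Cst12 is highest there. Clu to Trf is lower at each later stage, but its intervals overlap between d12 and d16 and between d16 and d24.

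The 10 Sertoli identity genes, among them Sox9 and Wt1, the transcription factors of Sertoli fate, and the junction protein Cldn11, were set beside the secreted genes in each library. Their summed level was 256.8 FPKM at d12, 195.8 at d16, 139.7 at d24, then 110.5 in the adult. Of these, 7 of 10 were at least 2-fold lower in adult testis than at d12, beside 23.1% of all genes, and 1 of 10 was after division by Gapdh, beside 2%. Their median log2 change was -1.72 as deposited and 0.06 after division by Gapdh. Rhox5 (20.3 to 16.7 FPKM) and Amhr2 (47.2 to 37.5 FPKM) were lower by less than 2-fold, and Amh was listed at 0 in adult testis.

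Each secreted gene was divided by each of the 10 identity genes in the same library, which no scaling alters, and the median of these ratios was taken. In adult testis the ratio to Amh, listed at 0, has no value and was ranked as the highest of the 10. The median of the 8 genes was then 1.65 times as high in adult testis as at d12, and 1.60 times without Amh, which was tried with the values known. With all 10 genes the ratio was 2.03 for Clu, 4.11 for Trf, 1.39 for Sparc, 1.71 for Ctsl, 1.59 for Cst9, 1.14 for Cst12, 2.62 for Defb19 and 1.19 for Defb36. Divided by Sox9 alone the median was 3.00 and by Gata4 alone 1.38, with Cst12 at 0.960 and Defb36 at 0.998 against Gata4. Against Rhox5, at 0.823 times its d12 level in adult testis, or Amhr2, at 0.794 times, 6 of the 8 secreted genes were lower and Trf and Defb19 higher. Defb19, at 0.835 times, had an interval (0.763 to 0.912) that spans both, so counting error alone could place it on either side. Whether the identity genes keep a fixed level per Sertoli cell was not tested. The 8 genes together made up 0.873% of the FPKM sum at d12, 0.666% at d16, 0.275% at d24, then 0.209% in the adult.

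Markers of other cells moved in the same libraries. The 7 Leydig cell markers, among them the steroid enzyme Cyp17a1 and the hormone Insl3, summed to 134.9 FPKM at d12 and 607.9 in adult testis, with 4 at least 2-fold higher and none lower, beside 35.7% and 23.1% of all genes, against 2 higher and 1 lower with the same FPKM sum, beside 23.1% and 49.7%. The 6 peritubular myoid markers summed to 257.5 and 307.6 FPKM, of which Actg2 alone went from 9.47 to 225.0, and 4 were at least 2-fold lower, against 0 after division by Gapdh, beside 23.1% and 2% of all genes. Macrophage markers summed to 32.7 and 28.9 FPKM, endothelial markers to 24.7 and 9.69, and spermatogonial markers to 222.1 and 47.9. Pachytene spermatocyte markers summed to 48.8 and 4808 FPKM and round spermatid markers to 5.90 and 4994. The 6 elongating spermatid markers, led by the protamines Prm1 and Prm2, summed to 10.5 FPKM at d12 and 22855 in adult testis. Which of these cells supplied RNA of the 8 genes was not tested.

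Other proteins that Sertoli cells secrete were read from a list of 19 genes, of which 16 had a mean of at least 1 FPKM. From d12 to adult, 12 were at least 2-fold lower and 1 at least 2-fold higher as deposited, beside 23.1% and 35.7% of all genes, and 3 were lower and 3 higher after division by Gapdh, beside 2% and 71.1%. The median log2 change was -1.61 as deposited and 0.07 after division by Gapdh. Inha, the alpha subunit of inhibin, had 49.4 FPKM at d12 and 23.1 in adult testis, and Shbg, the androgen-binding protein, 23.5 and 2.95. Igfbp3 had 10.9 and 0.781 FPKM, and Psap 100.9 and 52.0. Timp2, a metalloprotease inhibitor, had 31.5 and 31.7 FPKM, and Serpina5, a serine protease inhibitor, 37.7 and 30.4. Ptgds, a prostaglandin synthase that also carries lipids, had 0.298 FPKM at d12 and 17.1 in adult testis.

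Cathepsin L stood apart in level from 13 other cathepsins read from a list, of which Ctsd was the highest at 40.5 FPKM at d12. Of these, 10 had a mean of at least 1 FPKM. From d12 to adult, 6 of the 10 were at least 2-fold lower as deposited and none higher, beside 23.1% and 35.7% of all genes. After division by Gapdh 0 were lower and 3 higher, beside 2% and 71.1%. Ctsz had 15.7 FPKM at d12 and 4.59 in adult testis, and Ctss 6.59 and 8.34. Of 10 other cystatins read from a list, 5 had a mean of at least 1 FPKM. In adult testis 3 of the 5 were at least 2-fold higher than at d12 and none lower, beside 35.7% and 23.1% of all genes. After division by Gapdh 5 were higher, beside 71.1%, and with the same FPKM sum 2 were lower, beside 49.7%. Cst8 lay at 10.0 FPKM at d12, 4.89 at d16, 90.4 at d24, then 407.3 in the adult. Cst13 lay at 0.209, 0, 25.2 and 131.3 FPKM, and Cstl1 was listed at 0 at d12 and d16 and reached 7.09 FPKM at d24 and then 75.9. Cst3, the general inhibitor cystatin C, lay between 40.4 and 50.8 FPKM in all 4 libraries.

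These cystatins lie beside Cst9 and Cst12. Of 12 genes within 200 kb of Cst9, itself included, all reached 1 FPKM in at least 1 library, the filter used for these neighbours, and the window was chosen after the values were seen. On the log2 scale with the pseudocount, 2 (Cst12 and Cst11, at 0 in adult testis) were at least 2-fold lower and 5 at least 2-fold higher in adult testis than at d12 as deposited. Of all genes with a mean of 1 FPKM or more, 23.1% were lower and 35.7% higher by this measure. Cst8 and Cst13 lie between Cst12 and Cst9 and had higher values in adult testis, while both genes that flank them had higher values at d12 as deposited. Division by Gapdh put Cst9 and Cst12 higher in adult testis too, at log2 changes of 0.80 and 0.33. Around Defb19, 13 of 21 genes, itself and Defb36 included, reached 1 FPKM. Of these, 5 were at least 2-fold lower, Defb36 among them, and 4 higher as deposited, beside the same shares of all genes. Other beta-defensins were read from a list that need not hold the whole family, and 21 of it were found. None of these 21 had a mean of 1 FPKM, and their highest single value was 2.37 FPKM for Defb21 in adult testis. Near Defb19, 5 of them (Defb22, Defb23, Defb25, Defb26 and Defb28) were listed at 0 at every stage. Defb45, which lies between Defb19 and Defb36, had 0.617 FPKM at d12 and 1.16 in adult testis.

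**Figure D5:**
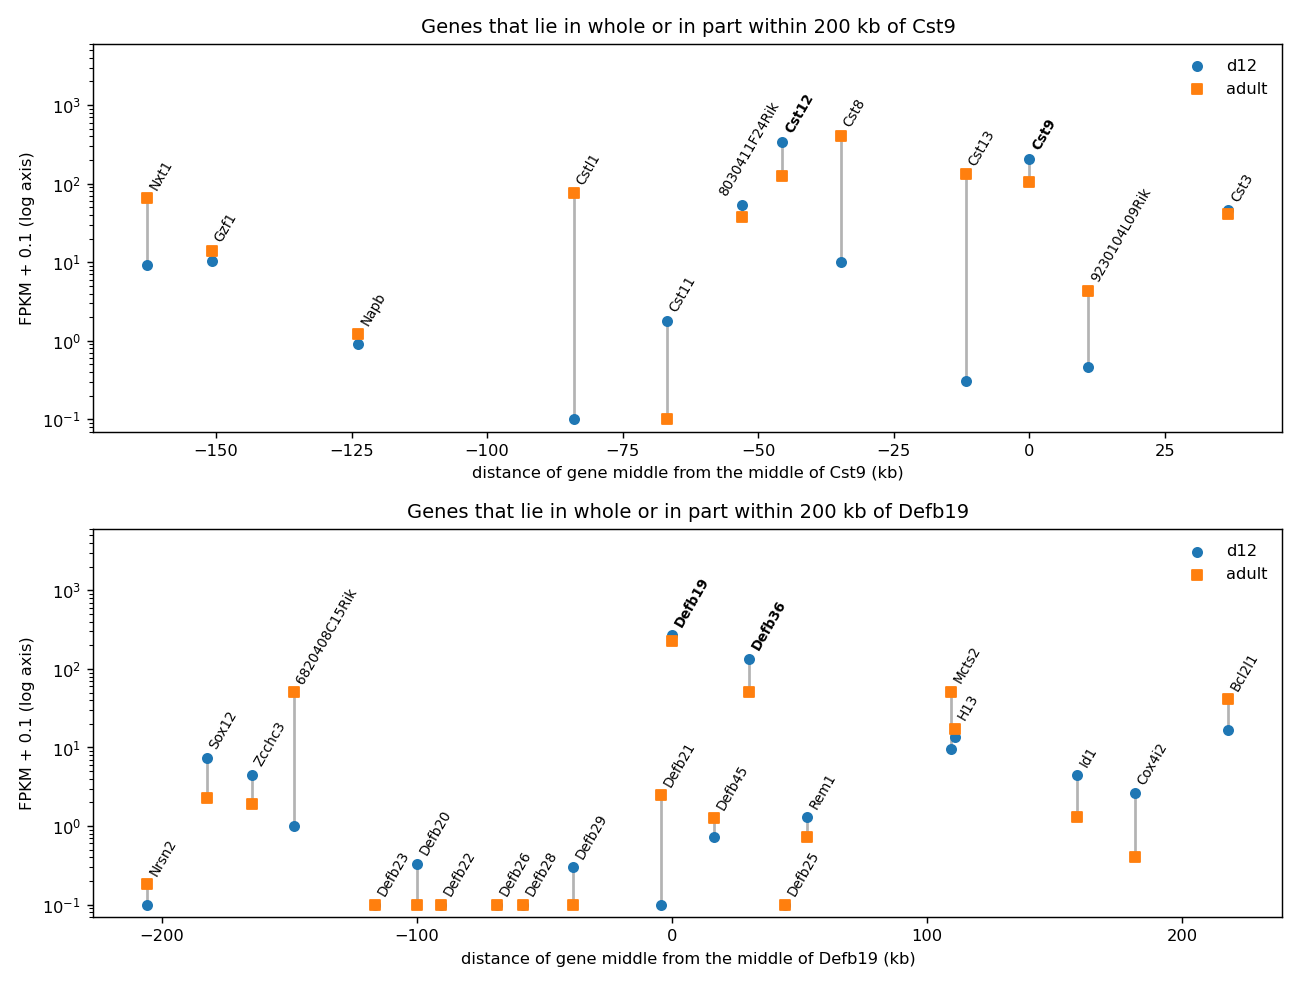
FPKM + 0.1 (log axis) at d12 and in adult testis of genes around Cst9 (top) and Defb19 (bottom) against distance along chromosome 2 in kb, with a grey line joining both stages. As deposited, Cst12 and Cst9 are higher at d12 (division by Gapdh turns this) and Cst8, Cst13 and Cstl1 higher in adult testis. Of the beta-defensins drawn here, only Defb19 and Defb36 exceed 3 FPKM at either stage.

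Of the iron uptake and storage genes, 5 of 9 were at least 2-fold lower and 2 higher from d12 to adult as deposited, beside 23.1% and 35.7% of all genes, against 0 and 4 after division by Gapdh, beside 2% and 71.1%. The transferrin receptor Tfrc lay at 25.3 FPKM at d12 and 8.08 in adult testis. Ftmt, mitochondrial ferritin, lay at 0.164 and 65.7 FPKM, while the ferritin heavy chain Fth1 lay at 91.7 and 84.0. Of the clusterin and lipoprotein receptor list, 2 of 5 were at least 2-fold lower as deposited, and after division by Gapdh 0 were lower and 3 higher, beside the same shares of all genes. Lrp1, a receptor for many ligands, had 12.6 and 4.22 FPKM. Apoe, an apolipoprotein, had 96.3 and 99.4 FPKM. Of 5 relatives of Sparc, 4 were at least 2-fold lower as deposited and 1 after division by Gapdh, again beside 23.1% and 2% of all genes. Fstl1 lay at 58.2 and 8.23 FPKM and Sparcl1 at 89.9 and 28.3, while Smoc1 had 6.47 FPKM at both stages.

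Genes whose profile over the 4 libraries was most like that of each member were found by the root mean square difference of centred log2 values, among 6967 genes averaging 10 FPKM or more. For Defb19 it was Pak1ip1 (0.00751) and Ddx19a, for Sparc Nrbp1 (0.0155) and Snx5, for Cst12 Nr1d2 (0.0162) and Tnrc6a, and for Clu Cdk2ap1 (0.0196) and Cnot6. For Ctsl it was Tmem123 (0.0325) and Hmgn3, for Trf Ube2w (0.0374) and Rsrc2, for Cst9 Zzz3 (0.0378) and Creb3, and for Defb36 Hsd17b12 (0.0536) and Gm14436. Among the members themselves the nearest pair, Sparc and Cst9, differed by 0.108. Each member had only 7 other members to be matched with, so this value cannot be compared with the best of 6967.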

How the data were processed

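The authors deposited FPKM values of 23983 genes for 4 RNA libraries, 1 each from testes at d12, d16, d24 and adult. Pairs of 50 base reads had been placed on GRCm38/mm10 by TopHat2 2.1.0 (which used Bowtie 1.1.2) with RefSeq genes as a guide and a limit of 1 placement. FPKM came from Cuffdiff (Cufflinks 2.2.1), which shared out multi-mapped reads and corrected for sequence bias but not for effective length. The scaling between libraries inside Cuffdiff is not given in the sources used here. A gene's level depends on the transcript length used.

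Log2 changes used a pseudocount of 0.1 FPKM and 2-fold was the size called, over genes whose mean was 1 FPKM or more. Fragments were recovered as whole multiples of 1 fragment, from genes with 1 curated transcript or several within 1.1 times of each other in length. Among values of up to 20 fragments, 91.8% to 92.4% lay within 0.05 of a whole number. The limit of 3 fragments at 1 kb is 0.137 to 0.337 FPKM. Intervals are exact 95% Poisson or Clopper-Pearson intervals. The recovery was tested on simulated data. With 1 library per stage no test was run and no p-value is given. Transcripts were searched against the genome with blastn 2.17.0 (e-value at most 1e-10). Scripts ran in Python 3.11.15 with scipy 1.17.1, pandas 2.3.3 and numpy 2.4.6.

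The 8 genes and all lists were chosen with earlier results of these data known. Genes named from a list came from the 3 with the highest mean and the 2 largest and 2 smallest changes from d12 to adult. Not all of these are given, and Gata4 was named as a divisor only. Genes of most similar profile were named too, and neighbouring genes after their values were seen. Alternatives were the same FPKM sum, the upper quartile, division by Gapdh, a pseudocount of 1 FPKM and other fold limits.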

Additional observations from a re-analysis of the deposited data

How the results depend on the processing

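Of 70 alternatives over 17 results, 15 turned a direction, 11 of them by division by Gapdh. Another 32 moved a log2 value by more than the counting error of its ratios, or a count, share or ratio by over 1.5 times (any change from or to 0 included), and 23 moved it by less. With the same FPKM sum, the median log2 change of the 8 genes was -0.41 from d12 to d16, -1.26 from d16 to d24, -0.38 from d24 to adult, -2.14 from d12 to adult and -1.77 from d12 to d24. With the upper quartile it was -0.42, -0.93, -0.14, -1.59 and -1.46, and after division by Gapdh 0.41, 0.52, 0.03, 0.85 and 0.81 in the same order. The 3 genes at least 2-fold lower from d12 to adult became 7 with the same FPKM sum, 6 with the upper quartile and 0 after division by Gapdh. The shares of all genes were then 49.7%, 37.8% and 2%. With other fold limits the 3 became 6 at 1.5-fold and 0 at 3-fold. The 5 from d12 to d24, a contrast added after seeing the data, became 0 after division by Gapdh, beside 0.532% of all genes, and 1 at 3-fold. The share of all genes was not computed at 1.5-fold or 3-fold, so those counts have nothing to be read against. From d12 to adult, division by Gapdh gave 1.15 for Clu, 0.61 for Sparc, 0.90 for Ctsl, 0.80 for Cst9, 0.33 for Cst12, 1.52 for Defb19 and 0.38 for Defb36. Trf became -0.81 with the same FPKM sum and -0.27 with the upper quartile. The ratio to Sox9 alone gave 3.00 in place of 1.65. A pseudocount of 1 FPKM turned no direction. Each of the 3 scalings multiplies all genes of a library by 1 factor, which is what moves these values.

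No paired analysis was possible because each stage has 1 library. With 1 library per stage, a difference between stages and one between mice cannot be told apart. Counting error was smallest for Clu and Ctsl and largest for Trf, with 180 to 310 fragments.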
